A study of Mus musculus with 3 samples.

Results

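The 10 genes described here form the core of the circadian clock and were followed in the livers of mice at 3 stages of ischemia-reperfusion injury. They were chosen by gene symbol out of the 23361 genes in the deposited tables, with the FPKM of these libraries already known, so their levels are given as a description and without a test. Of the 10 genes, 3 encode activators (Arntl, Clock and Npas2), 4 encode repressors (Per1, Per2, Per3 and Cry1), 2 encode the nuclear receptors REV-ERBα and REV-ERBβ (Nr1d1 and Nr1d2), and Dbp encodes an output transcription factor. The mRNA libraries are 1 of the sham group, 1 of the warm ischemia (WI) group and 1 of the ischemia followed by reperfusion (IR) group. All mice were labelled as male C57BL/6J of 8 to 10 weeks without any transgene, and all were fasted before surgery and anesthetized with chloral hydrate. The sham group had a laparotomy only, with livers taken 90 min later. Livers of the WI group were taken after 90 min of occlusion of the vessels to the left and median lobes, and those of the IR group after 90 min of occlusion and 120 min of reperfusion. Body temperature was held by a heating pad during anesthesia. No source used here states if several mice were pooled for a library, and the hour of day at which livers were taken is not given in the sources used here. Reperfusion, the added time after surgery and any difference in the hour of day therefore cannot be told apart in comparisons with the IR sample. Between sham and WI, occlusion and any difference in the hour of day likewise cannot be told apart. Sham mice spent the 90 min in cages, and where WI mice were kept during occlusion is not stated.

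The clock is a feedback loop of transcription. BMAL1 (encoded by Arntl) pairs with CLOCK or NPAS2, binds E-box sequences and activates the Per, Cry, Nr1d and Dbp genes, and the PER and CRY proteins then inhibit that pair. REV-ERB proteins bind ROR response elements and repress Arntl, Npas2 and other genes of that phase, while ROR proteins activate through the same elements. In liver the clock sets daily rhythms of bile acid, lipid and glucose metabolism, and it takes time cues from feeding, glucocorticoids and body temperature.

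Before the clock genes were compared, the libraries were checked against their labels. Xist, which is transcribed from the inactive X chromosome of females, had an FPKM (fragments scaled to transcript length and to all mapped fragments) of 18.9 in sham, 20.1 in WI and 1.29 in IR. Of the Y-linked genes Ddx3y, Eif2s3y, Kdm5d and Uty, all 4 were at 0 in sham and 3 in WI, where Ddx3y had 0.00849, against 0.669 to 13.2 in IR. The sham and WI libraries thus went against their label of male mice. Among 24 listed male-biased liver genes, 18 were at least 2-fold higher in FPKM + 1 in IR than in WI and 5 were lower, those 5 being Mup genes listed at 0 in IR. A sex difference therefore cannot be told apart from reperfusion in IR minus WI and IR minus sham. Of 18 female-biased genes in the tables, 1 was higher and 6 were lower from WI to IR, and 1 was higher and 9 were lower from sham to IR. From sham to WI, where the Xist and Y-linked pattern was shared, 0 male-biased genes were higher and 2 lower. For the female-biased genes the counts there were 0 higher and 4 lower. Among the 10792 genes kept by the filter described below, 0.751% were higher and 1.1% lower from sham to WI. These shares were 5.78% and 1.43% from WI to IR, and 5.35% and 2.15% from sham to IR. With 1 library per group no comparison could be repeated without a library. The hepatocyte markers Apoa1, Ttr, Cyp2e1 and Hnf4a were present in every library, and albumin was listed at 0 in all 3 because its locus held too many fragments for the software to process. The summed FPKM of 5 Kupffer cell markers was 422 in sham, 209 in WI and 113 in IR, with none at 0. That of 4 neutrophil markers was 23.7, 17.9 and 420 in the same order, with Mpo at 0 in IR, and that of 4 erythroid markers was 724, 518 and 1899, with none at 0. The part of these other cells in the clock values below was not tested, and in bulk RNA fewer cells of a type and less RNA per cell cannot be told apart.

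Promoter sequences show which clock elements lie next to the start sites of these genes. RefSeq windows of 300 bases (250 before and 50 after the start, build GRCm38.p6) matched 9 of the 10 genes by symbol, in 13 windows, and Per2 had no entry. On both strands, the windows were searched for the E-box CACGTG, the E′-box CACGTT, the ROR response element core AGGTCA, the D-box TTATGTAA bound by DBP, the cyclic AMP response element TGACGTCA, its shorter core TGACG, and the heat shock element GAANNTTC. The shorter core lies within the whole cyclic AMP element, and the E-box and E′-box differ only in their last base. The 4 windows shown belong to the gene with the largest difference between samples (Nr1d1), to the 2 Per genes that went in opposite directions after reperfusion (Per3 and Per1) and to the activator whose WI and IR bounds did not overlap (Arntl). Each is printed 5′ to 3′ on the strand of its gene, with E-boxes, E′-boxes, ROR element cores and D-boxes in capitals on either strand.
Nr1d1, chr11:98775328-98775627, minus strand: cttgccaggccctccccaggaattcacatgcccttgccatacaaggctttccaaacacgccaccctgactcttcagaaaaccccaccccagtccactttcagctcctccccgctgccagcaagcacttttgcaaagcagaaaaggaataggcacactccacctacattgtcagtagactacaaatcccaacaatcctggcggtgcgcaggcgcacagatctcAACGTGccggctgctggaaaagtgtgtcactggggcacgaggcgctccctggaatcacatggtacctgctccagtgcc
Per3, chr4:151044616-151044915, minus strand: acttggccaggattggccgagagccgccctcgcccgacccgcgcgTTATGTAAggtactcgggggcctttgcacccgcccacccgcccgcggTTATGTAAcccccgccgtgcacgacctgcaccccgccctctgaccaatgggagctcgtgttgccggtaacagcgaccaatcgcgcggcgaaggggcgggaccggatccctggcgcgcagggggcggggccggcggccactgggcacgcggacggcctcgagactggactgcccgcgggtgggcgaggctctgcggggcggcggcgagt
Per1, chr11:69098699-69098998, plus strand: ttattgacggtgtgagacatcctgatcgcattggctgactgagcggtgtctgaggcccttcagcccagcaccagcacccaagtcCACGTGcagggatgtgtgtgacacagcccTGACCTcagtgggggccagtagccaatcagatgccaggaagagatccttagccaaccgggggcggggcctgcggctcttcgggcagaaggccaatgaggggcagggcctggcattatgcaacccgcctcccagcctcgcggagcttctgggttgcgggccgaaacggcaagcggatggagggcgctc
Arntl, chr7:113207261-113207560, plus strand: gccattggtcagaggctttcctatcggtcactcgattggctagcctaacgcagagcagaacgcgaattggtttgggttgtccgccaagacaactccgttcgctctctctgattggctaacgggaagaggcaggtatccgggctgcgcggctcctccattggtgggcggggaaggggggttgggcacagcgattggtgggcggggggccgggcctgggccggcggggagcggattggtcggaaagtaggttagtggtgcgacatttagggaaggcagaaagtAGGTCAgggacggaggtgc

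Positions are counted from the transcript start, with bases before it negative. The Nr1d1 window held 1 E′-box at position -28, read on the opposite strand. Per3 held 2 D-boxes, at positions -205 and -158, a motif found in the windows of 1.11% of all genes. The Per1 window held an E-box at position -166 and a ROR element core at position -137, the latter on the opposite strand. In Arntl a ROR element core lay at position 32, within the transcript. Cry1, not printed, held both an E-box (position -60) and an E′-box (position -79). The E-box was present in 2 of the 9 matched genes (8.09% of all genes), the E′-box in 2 (5.44%), the ROR element core in 4 (18.1%) and the D-box in 1. Neither the whole cyclic AMP element (2.03% of all genes) nor the heat shock element (9.04%) was in any of the 9, and its shorter core was in Per1 and Cry1 (23.0% of all genes). These matches are letters in a short window and not measured binding sites.

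The level of each clock gene was then read from its FPKM and 95% confidence bounds, which come from the model of the software. With 1 library per group the bounds hold no measured variation among mice of a group. They were wide also at high FPKM, as for Apoa1 in sham with 7630 (0 to 15988), so they are not counting error alone. Changes are differences of log2(FPKM + 1), which understate those of genes with low FPKM. A gene counted as different when FPKM + 1 differed at least 2-fold, over the 10792 genes that reached an FPKM of 1 in any library. By that filter 9 of the 10 clock genes could be counted. Npas2 failed it, and Arntl passed only through the IR sample, where it was highest.

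**Figure D1:**
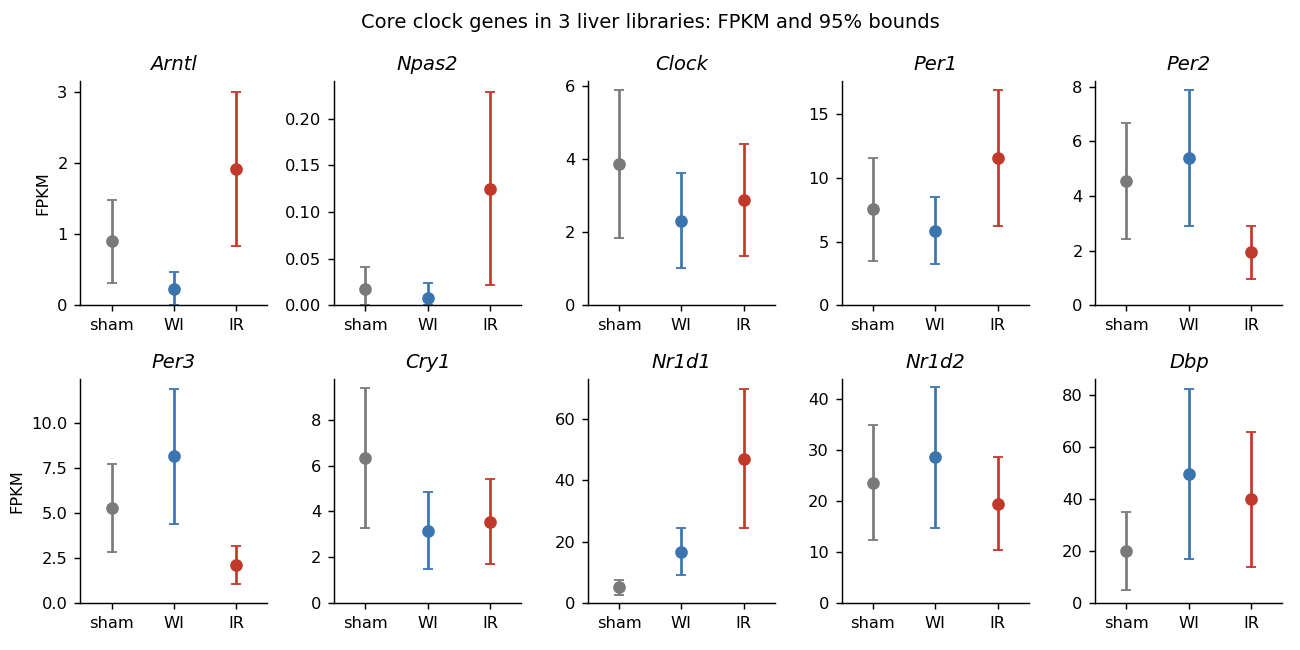
FPKM of the 10 clock genes (vertical axes, each starting at 0) in the sham, WI and IR libraries, 1 library each; points are deposited values and bars the deposited 95% bounds. Nr1d1 has 5.06 in sham and 47.0 in IR, Per2 and Per3 are lowest in IR, and Arntl and Npas2 are lowest in WI.

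Among the activators, Arntl was low throughout. Arntl (chromosome 7 of mm10, 113207465 to 113314126) had 0.896 FPKM in sham (95% bounds 0.312 to 1.48), 0.226 in WI (0 to 0.472) and 1.91 in IR (0.829 to 3.0). The IR value lay above the WI value with bounds apart, and the sham value overlapped both. Its change was -0.63 from sham to WI and 1.25 from WI to IR. On plain FPKM the IR value was 8.48 times that in WI. The bounds of Arntl, read as counting error alone, correspond to 3.9 fragments in WI and 10.3 in IR. Ratios that use its WI value are therefore uncertain. Clock (chromosome 5, 76183880 to 76469519), the partner of BMAL1, had 3.86 in sham (1.84 to 5.88), 2.31 in WI (1.01 to 3.61) and 2.87 in IR (1.33 to 4.41). Its deposited locus reaches past the RefSeq model of Clock (76209868 to 76305603) on both sides, and what else it spans was not examined. All 3 bounds of Clock overlapped, and its order between WI and IR turned when the libraries were rescaled to a common sum. The FPKM of Clock was 4.31 times that of Arntl in sham, 10.2 times in WI and 1.5 times in IR. Npas2 (chromosome 1), a paralog of Clock, was near the limit of detection, with 0.0169 in sham (0 to 0.0413), 0.00752 in WI (0 to 0.0238) and 0.125 in IR (0.0213 to 0.229). Read as counting error alone, these bounds correspond to 2 fragments, 1 fragment and 4.83 fragments, so no fold is given for it. Arntl and Npas2 had the same order of samples, with IR highest and WI lowest, but that of Npas2 rests on those few fragments. Clock was also lowest in WI, and the bounds of Npas2 and Clock overlapped in every pair.

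Among the repressors, the Per genes did not share 1 order of samples. Per1 (chromosome 11, 69098956 to 69109957), which responds to glucocorticoid and cyclic AMP signals, had 7.53 FPKM in sham (3.47 to 11.6), 5.86 in WI (3.21 to 8.50) and 11.6 in IR (6.19 to 16.9). Its bounds overlapped in all pairs of samples, and its largest change, 0.87 from WI to IR, stayed under 2-fold. Per2 (chromosome 1, 91415982 to 91459328) had 4.56 in sham (2.43 to 6.68), 5.37 in WI (2.88 to 7.86) and 1.93 in IR (0.961 to 2.91). Its change from WI to IR was -1.12, past 2-fold, although the bounds still met between 2.88 and 2.91. Per3 (chromosome 4, 151003655 to 151044622) had 5.29 in sham (2.83 to 7.75), 8.15 in WI (4.37 to 11.9) and 2.12 in IR (1.06 to 3.19). Here the WI and IR bounds did not overlap, the change from WI to IR was -1.55 and that from sham to IR was -1.01. Per2 and Per3 thus had the same order of samples, WI above sham above IR, while Per1 had IR above sham above WI. Within a library, Per1 exceeded Per2 in FPKM by 1.65 times in sham, 1.09 times in WI and 5.97 times in IR. The ratio of Per2 to Per3 stayed between 0.659 and 0.911. Cry1 (chromosome 10, 85131700 to 85185054), the partner of the PER proteins in repression, had 6.33 in sham (3.25 to 9.40), 3.15 in WI (1.47 to 4.84) and 3.54 in IR (1.69 to 5.39). Cry1 was highest in sham, by 0.82 over WI and 0.69 over IR in log2(FPKM + 1), with overlapping bounds. WI and IR values of Cry1 were close, and their order turned under rescaling to a common sum.

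The REV-ERB genes differed from each other. Nr1d1 (chromosome 11, 98767935 to 98775242) had 5.06 FPKM in sham (2.52 to 7.61), 16.7 in WI (8.98 to 24.5) and 47.0 in IR (24.2 to 69.7). It was the only clock gene past 2-fold higher at both steps, although its change from WI to IR was 0.92, under 2-fold, when the libraries were rescaled to a common sum. The bounds of sham lay below those of WI and of IR, and those of WI and IR met narrowly, between 24.2 and 24.5. Its change was 1.55 from sham to WI (95% half-width 0.87 from the bounds), 1.44 from WI to IR (0.93) and 2.98 from sham to IR (0.91), the last a ratio of 9.27 in FPKM. From sham to WI, Nr1d1 was the 26th highest change of the 10792 genes, and from sham to IR the 65th. In RefSeq the 3′ end of Nr1d1 overlaps Thra, the thyroid hormone receptor gene, over 1075 bases, while their deposited loci do not overlap. Whether strand was used in counting is not stated. Thra had an FPKM of 2.92, 2.73 and 2.13 in the sham, WI and IR samples. Nr1d2 (chromosome 14, 18204056 to 18239106) had 23.6 in sham (12.3 to 34.8), 28.5 in WI (14.7 to 42.4) and 19.5 in IR (10.3 to 28.7). Its bounds overlapped in every pair and its changes lay between -0.53 and 0.27. In FPKM, Nr1d1 was 0.215 times Nr1d2 in sham, 0.586 times in WI and 2.41 times in IR, so the order of the paralogs was the reverse in IR.

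Dbp (chromosome 7, 45705247 to 45718002), which encodes a D-box binding activator of liver enzymes, had 20.0 FPKM in sham (5.07 to 34.9), 49.7 in WI (16.8 to 82.5) and 40.0 in IR (14.0 to 66.0). WI and IR were both above sham, but all bounds overlapped, since those of Dbp correspond to a coefficient of variation of 32.5% to 37.3%. The change from sham to WI was 1.27, the 45th highest of all genes, and that from sham to IR was 0.97, just inside the 2-fold limit. The deposited locus of Dbp is also that of Sphk2, a sphingosine kinase gene on the opposite strand, and it spans both genes. The RefSeq models of the 2 genes overlap over 741 bases, and without a statement on strand the reads there cannot be told apart. Sphk2 had 12.7, 17.6 and 14.5 in the sham, WI and IR samples, the same order as Dbp with a smaller spread.

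Between the WI and sham samples, 2 of the 9 clock genes (Nr1d1 and Dbp) were at least 2-fold higher in WI, where 0.751% of all genes were, and 0 were lower, where 1.1% of all genes were. Bounds were apart for Nr1d1 alone, which was higher, against 0.195% of all genes higher and 0.482% lower. From WI to IR, 2 clock genes (Nr1d1 and Arntl) were higher, beside 5.78% of all genes, and 2 (Per2 and Per3) were lower, beside 1.43%. In that comparison the bounds were apart for Arntl, higher (3.22% of all genes), and Per3, lower (0.398%). Arntl passed the filter only through IR. With FPKM of at least 1 in all samples, 1 of 8 clock genes was higher and 2 were lower, beside 6.06% of all genes in either direction. Between IR and sham, Nr1d1 was higher (5.35% of all genes) and Per3 lower (2.15%), and the bounds were apart for Nr1d1 alone (2.7% of all genes higher and 1.12% lower). Since the genes were picked with these values known, the shares only place the counts. The median change of the 9 genes was 0.20 from sham to WI, 0.13 from WI to IR and -0.26 from sham to IR, beside 0.02, 0.03 and 0.05 over all genes, so the values lay on both sides of 0. The summed FPKM was 475754 in sham, 487912 in WI and 712423 in IR. Rescaling to a common sum turned the split of all genes from 624 higher and 154 lower to 385 and 1185 from WI to IR, and from 577 and 232 to 319 and 1554 from sham to IR. The common sum was set above the sum of each library, so this setting also lessened the weight of the pseudocount.

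**Figure D2:**
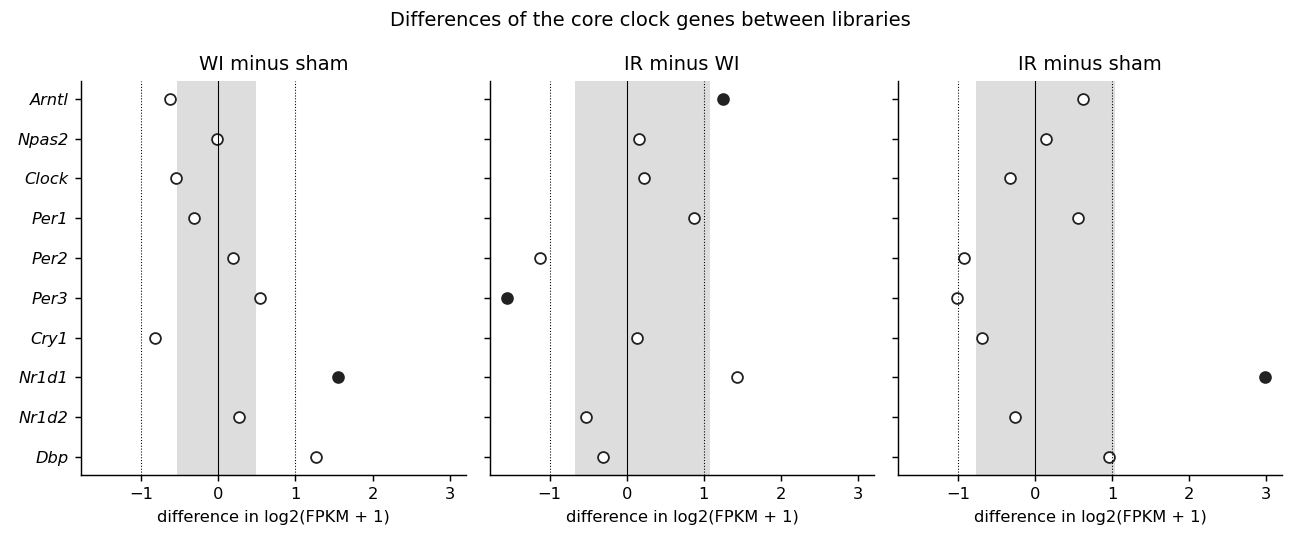
Differences in log2(FPKM + 1) of the 10 clock genes (horizontal axes) in 3 comparisons of single libraries; filled circles have 95% bounds that do not overlap, dotted lines mark 2-fold, and grey bands hold the genes between the 5% and 95% limits of all 10792 genes. Nr1d1 lies past 2-fold to the right in each panel, up to 2.98, and Per3 lies at -1.55 in IR minus WI. Npas2, which failed the filter, is drawn for completeness.

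The order of the clock genes within a library was also read from FPKM, which is scaled for transcript length. In the sham sample the order from the highest was Nr1d2, Dbp, Per1, Cry1, Per3, Nr1d1, Per2, Clock, Arntl and Npas2. WI had Dbp first, then Nr1d2, Nr1d1, Per3, Per1, Per2, Cry1, Clock, Arntl and Npas2. The IR sample had Nr1d1 first, then Dbp, Nr1d2, Per1, Cry1, Clock, Per3, Per2, Arntl and Npas2. Most neighbours in these orders overlapped in their bounds, 7 of 9 pairs in sham, 8 in WI and 7 in IR. The breaks were between Clock and Arntl in sham and WI, between Arntl and Npas2 in sham and IR, and between Per1 and Cry1 in IR. Nr1d1 moved from the 6th place in sham to the 3rd in WI and the first in IR.

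The 6 genes known as E-box driven (Per1, Per2, Per3, Nr1d1, Nr1d2 and Dbp) were then set against 4 genes known to be repressed by REV-ERB (Arntl, Npas2, Clock and Cry1) within each library. The grouping is from general knowledge and not from the windows above, in which Cry1 held an E-box and no ROR element core while Per1 and Nr1d2 held such a core, and Cry1 is driven through E-boxes as well. The mean log2(FPKM + 1) of the 6 genes exceeded that of the 4 genes by 1.78 in sham, 2.87 in WI and 2.23 in IR. A factor between libraries does not cancel from these differences because of the pseudocount. It does cancel without one, where they were 3.48, 5.34 and 3.13, with IR below sham. That place of IR rested on Npas2, which failed the filter, since without Npas2 and without a pseudocount the differences were 1.64, 3.52 and 2.03. WI was highest in each of these versions. The WI sample had both the highest mean of the 6 genes, 3.89, and the lowest mean of the 4 genes, 1.02. The FPKM ratio of Dbp to Cry1 was 3.16 in sham, 15.7 in WI and 11.3 in IR.

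Further components of the clock were counted in the same way. Of 24 listed genes 22 passed the filter. From sham to WI 0 were higher and 1 lower, from WI to IR 2 were higher and 5 lower, and from sham to IR 1 was higher and 4 were lower. Over all genes the shares were 0.751% higher and 1.1% lower from sham to WI, 5.78% and 1.43% from WI to IR, and 5.35% and 2.15% from sham to IR. After rescaling to a common sum, 2 components were higher and 6 lower from WI to IR, and 1 was higher and 8 were lower from sham to IR. Over all genes 385 were then higher and 1185 lower from WI to IR, and 319 and 1554 from sham to IR. Rescaling by the median ratio left the counts of components in both comparisons as they were. Without rescaling the median changes of the components were -0.08, -0.21 and -0.12. Nfil3, a repressor at D-boxes that REV-ERB represses, had 14.5 FPKM in sham (7.76 to 21.2), 5.70 in WI (2.82 to 8.58) and 27.3 in IR (14.6 to 39.9). Its order of samples, IR above sham above WI, was that of Arntl and also of Per1 and Cry2, while Clock and Cry1 were highest in sham. A link of Nfil3 to REV-ERB was not tested. Usp2, a deubiquitinase of clock proteins, had 16.8 (8.75 to 24.9), 14.9 (7.88 to 22.0) and 4.19 (1.85 to 6.52), and the IR bounds lay below both others. Bhlhe41, a repressor at E-boxes, had 0.0755, 0.191 and 1.56, with the IR bounds above the others (0.614 to 2.51). It passed the filter only through IR, and with FPKM of at least 1 in all samples 0 components were higher from sham to IR. Ciart, a repressor of the CLOCK and BMAL1 pair, had 11.1 (5.43 to 16.8), 5.24 (2.23 to 8.25) and 4.27 (1.74 to 6.81). The paralogs of Dbp, named after their values were seen, were lower in IR. Tef had 33.0, 42.2 and 20.1 in the sham, WI and IR samples, and Hlf had 10.3, 9.06 and 4.0. From WI to IR their changes were -1.04 and -1.01, beside -0.31 for Dbp. Cry2, also named after its values were seen, had 9.96, 8.65 and 14.2 and stayed within 2-fold.

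Genes with known daily rhythms in liver were read next. All 20 listed genes passed the filter. From sham to WI 0 were higher and 4 lower, from WI to IR 3 were higher and 3 lower, and from sham to IR 2 were higher and 4 lower. The shares of all genes were 0.751% higher and 1.1% lower from sham to WI, 5.78% and 1.43% from WI to IR, and 5.35% and 2.15% from sham to IR. After rescaling to a common sum the counts were 3 higher and 10 lower from WI to IR, and 1 higher and 11 lower from sham to IR. Over all genes 385 were then higher and 1185 lower from WI to IR, and 319 and 1554 from sham to IR. Rescaling by the median ratio left the counts of rhythmic genes in both comparisons as they were. Without rescaling the median changes of the rhythmic genes were -0.02, -0.44 and -0.46. Cdkn1a, a cell cycle inhibitor that REV-ERBα represses and that p53 also induces, had 21.5 in sham (11.4 to 31.6), 0.619 in WI (0.161 to 1.08) and 47.5 in IR (25.1 to 69.9). Insig2, a REV-ERBα target that restrains sterol synthesis, had 87.1 (40.3 to 133.9), 25.6 (13.2 to 38.0) and 103.1 (44.1 to 162). Both were lowest in WI with bounds below those of sham and IR. Nr1d1 was highest in IR, and a link of Cdkn1a or Insig2 to REV-ERBα was not tested. Lpin1, which encodes a phosphatidate phosphatase, had 149 (51.8 to 247), 26.1 (12.8 to 39.4) and 23.6 (11.8 to 35.3). Elovl3, a fatty acid elongase, had 3.91 (1.77 to 6.06), 1.31 (0.450 to 2.17) and 33.3 (17.8 to 48.8), and it is also among the male-biased genes that were higher in IR. Cyp7a1, the rate-limiting enzyme of bile acid synthesis, had 73.0 (34.4 to 111.5), 80.1 (37.4 to 122.9) and 31.6 (16.4 to 46.9), with overlapping bounds.

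Genes of the pathways that bring time cues to the clock differed by cue. Several are targets of these pathways, such as Fkbp5 and the chaperone genes, so their mRNA does not measure a cue reaching the clock. Of 11 genes of glucocorticoid and cyclic AMP signaling, all of which passed the filter, 0 were higher and 2 lower from sham to WI, 2 higher and 0 lower from WI to IR, and 1 higher and 3 lower from sham to IR. Their median changes were -0.39, -0.12 and -0.74. Fkbp5, a glucocorticoid target, had 72.4 in sham (34.0 to 110.7), 13.2 in WI (7.09 to 19.3) and 32.2 in IR (16.6 to 47.7). Per1 shared its lowest value in WI but was highest in IR. Sgk1, another glucocorticoid target, had 30.0 (15.0 to 45.0), 14.8 (7.38 to 22.3) and 13.6 (6.63 to 20.6). G6pc, the last enzyme of glucose release, had 335 (129.5 to 541), 152 (69.9 to 234) and 78.1 (39.2 to 117). Crem, a cyclic AMP responsive factor, had 7.99 (2.85 to 13.1), 9.14 (3.27 to 15.0) and 28.0 (11.8 to 44.2). Of 8 temperature genes, 2 were higher and 0 lower from sham to WI, and 5 were higher and 0 lower both from WI to IR and from sham to IR. Their median changes were 0.24, 2.10 and 2.36. Over all genes 0.751% were higher and 1.1% lower from sham to WI, 5.78% and 1.43% from WI to IR, and 5.35% and 2.15% from sham to IR. For the 19 genes of both cues together, rescaling to a common sum turned 7 higher and 0 lower into 5 and 3 from WI to IR, and 6 higher and 3 lower into 5 and 9 from sham to IR. Over all genes 385 were then higher and 1185 lower from WI to IR, and 319 and 1554 from sham to IR. Rescaling by the median ratio left the counts of the 19 genes in both comparisons as they were. The 5 temperature genes that were higher in IR were the chaperone genes Hspa1a, Hspa1b, Hsph1, Hsp90aa1 and Hspa8, which are targets of heat shock factor, and the bounds of Hspa8 overlapped in every pair. Hspa1b, for example, had 1.99 (0.837 to 3.15), 8.36 (4.42 to 12.3) and 442 (140.4 to 743). Hspa1a had 0.425 (0.113 to 0.736), 3.89 (1.90 to 5.88) and 206 (84.0 to 329). Hsph1 went from 7.01 to 9.04 and 76.1, Hsp90aa1 from 28.2 to 36.7 and 256, and Hspa8 from 477 to 528 and 1424. The cold-induced genes Cirbp and Rbm3 were named after their values were seen. Cirbp had 16.9, 10.4 and 9.13, but its lower bound was 0 in every library. Rbm3 had 57.5 in sham, 38.6 in WI and 62.2 in IR, with overlapping bounds in every pair. Per2, which is known to respond to heat shock factor, was lowest in IR, with overlapping bounds in every pair. A link between Per2 and the chaperone genes was not tested.

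**Figure D3:**
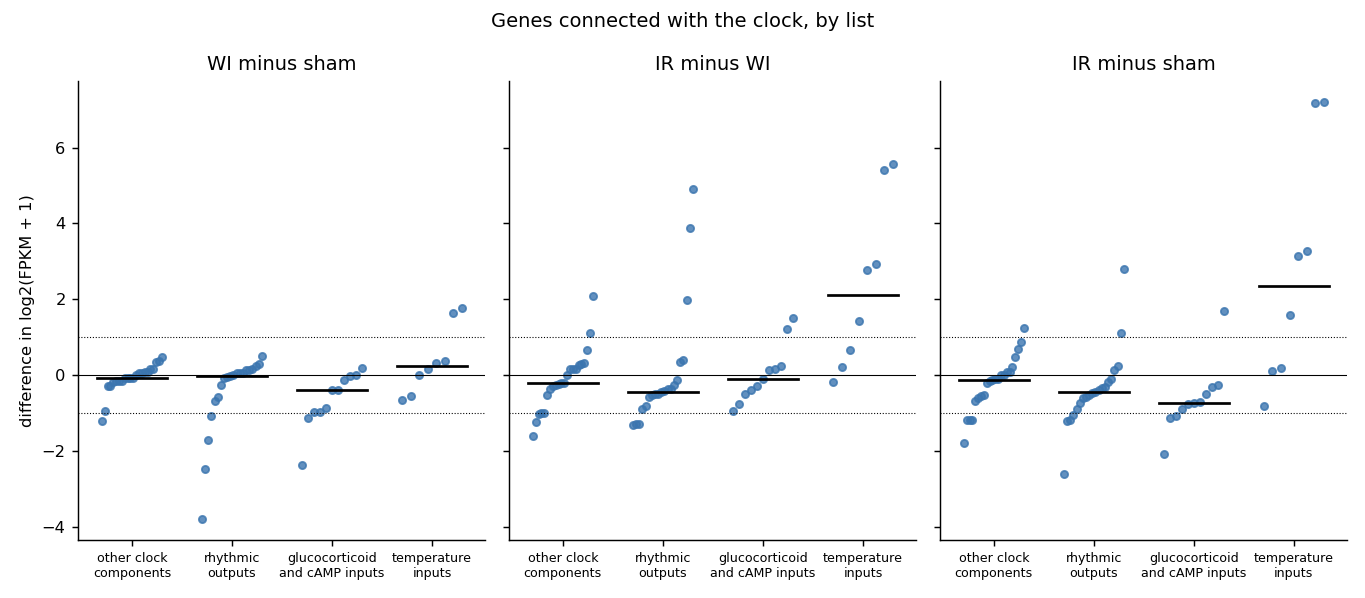
Differences in log2(FPKM + 1) for the genes of 4 lists that passed the filter (22, 20, 11 and 8 genes, 1 point each), in 3 comparisons of single libraries; black bars are medians and dotted lines mark 2-fold. The temperature genes have medians of 2.10 and 2.36 in the comparisons with the IR sample, and the medians of the other lists lie between -0.74 and -0.02.

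Finally, the genes most like the 3 clock genes with the largest range were sought by the distance between their pairs of changes (sham to WI and WI to IR) over the 3 libraries. For Nr1d1 the nearest of 10783 genes were D4Wsu53e (distance 0.37), the chemokine gene Cxcl10 (0.48) and the magnesium transporter gene Slc41a2 (0.54), and 0 genes lay within 0.25. For Per3 they were Cyp2b9 (0.04), a cytochrome P450 that is female-biased in liver, the transcription factor Tbx3 (0.17) and the adenylate kinase Ak4 (0.17), with 3 genes within 0.25. Dbp had Ifi47 (0.06), an interferon-induced GTPase, Srebf1 (0.15), the regulator of lipid synthesis, and Erdr1 (0.16), with 8 genes within 0.25. Cyp2b9 had 176 FPKM in sham, 251 in WI and 83.4 in IR. Both changes of a gene use the WI library, and likeness over 3 libraries is a description only.

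**Figure D4:**
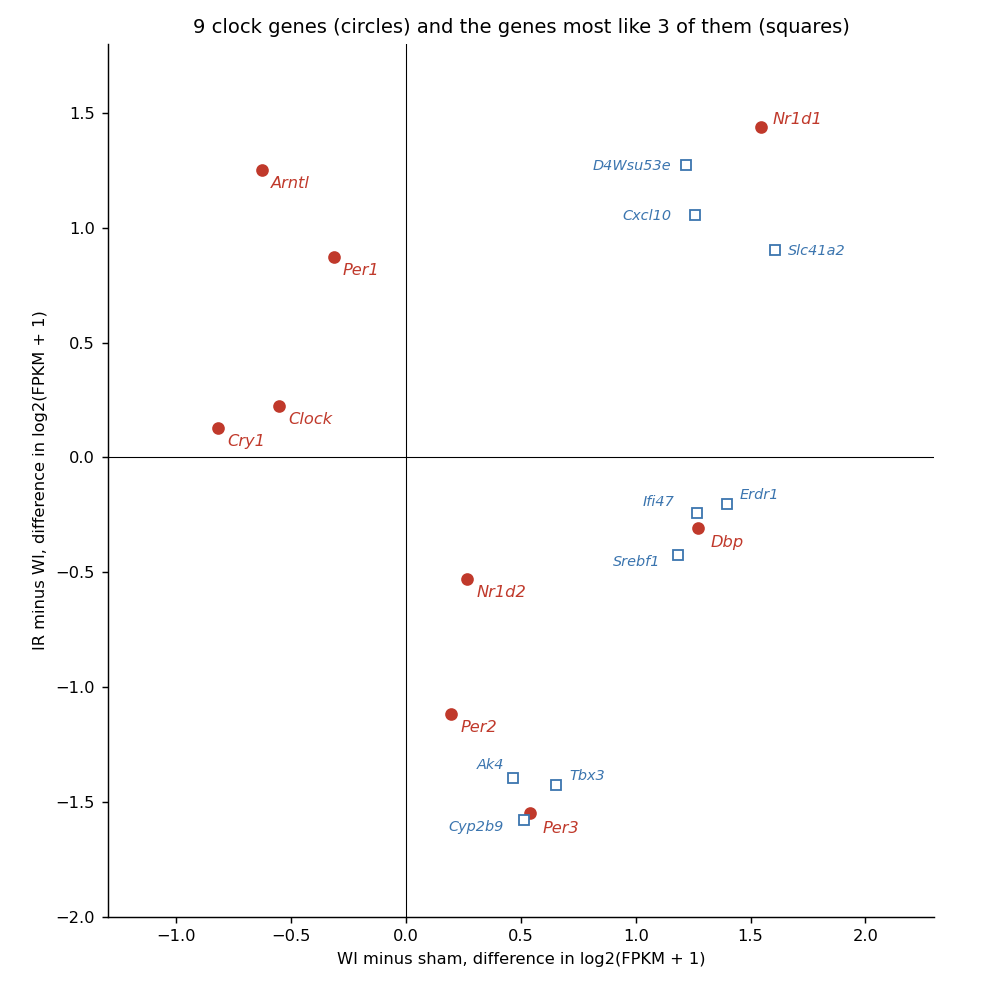
Change from sham to WI (horizontal axis) against change from WI to IR (vertical axis), both as differences in log2(FPKM + 1), for the 9 clock genes that passed the filter (circles) and the 3 genes nearest to Nr1d1, Per3 and Dbp (squares). Nr1d1 is the only clock gene above 0 on both axes past 2-fold, at 1.55 and 1.44, and Per3 lies at 0.54 and -1.55.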

How the data were processed

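Messenger RNA of mouse liver was sequenced by the authors in 3 libraries, 1 each of the sham, WI and IR groups. Per the labels and the study's methods, reads were mapped to mm10 with TopHat2 2.0.9 at default parameters, and Cufflinks 2.0.2 is named for the expression step. Use of strand is not stated. The authors deposited FPKM with 95% bounds and a status for each gene, and no counts, so depth per gene is unknown beyond what those bounds imply. The median coefficient of variation they give is 26.0% in every library. Loci were written counting from 1.

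FPKM + 1 was put on the log2 scale over genes that reached an FPKM of 1 in any library. With 1 library per group no test was possible and no p-value is given. The clock genes and the lists were chosen with earlier results of these data known. Genes named from the lists were those past 2-fold in any comparison, at most 5 per list with the largest range. The values of 1 gene that this rule names are not reported here. Alternatives were pseudocounts of 0.1, 0.01 and none, other filters (none, at least 1 in all samples, at least 5 in 1 sample), folds of 1.5 and 4, rescaling to a common sum or by the median ratio, leaving out sex-linked and sex-biased genes, status OK only, and bounds apart. A planned comparison of protein sequences was not made. Counting was tested on simulated data. Python 3.11.15, numpy 2.4.6, pandas 2.3.3 and matplotlib 3.10.9 were used.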

Additional observations from a re-analysis of the deposited data

How the results depend on the processing

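Counts of clock genes past the limit depended on the fold, the pseudocount, the filter and rescaling to a common sum. Rescaling by the median ratio left the counts at 2 from sham to WI, 4 from WI to IR and 2 from sham to IR. From sham to WI the count of 2 became 4 with a pseudocount of 0.01, with none, or at 1.5-fold, 0 at 4-fold and 1 where bounds had to be apart. The share of all genes past the limit there went from 1.85% to 4.14% with a pseudocount of 0.01 and 4.03% with none. It was 7.41% at 1.5-fold and 0.222% at 4-fold. From WI to IR the count of 4 became 0 at 4-fold and 2 with bounds apart. It was 3 with FPKM of at least 1 in all samples or of at least 5 in 1 sample. The share of all genes there went from 7.21% to 1.8% at 4-fold, and to 6.06% and 9.25% with these filters in turn. From sham to IR the count of 2 became 4 with a pseudocount of 0.1, of 0.01 or none, 6 at 1.5-fold, 1 at 4-fold, 4 after rescaling to a common sum and 1 with bounds apart. The share of all genes there went from 7.5% to 13.2%, 13.9% and 13.7% with these pseudocounts in turn. It was 23.8% at 1.5-fold, 1.54% at 4-fold and 17.4% after rescaling to a common sum. The cause of these moves was not tested beyond the settings' own construction. Rescaling to a common sum moved the median of all genes by more than 0.1 on the log2 scale, to -0.45 from WI to IR and -0.46 from sham to IR, so that 1 clock gene was higher and 3 lower in each of these comparisons. The median change of the clock genes from WI to IR was then -0.32, and it was also below 0 with FPKM of at least 1 in all samples (-0.09) or of at least 5 in 1 sample (-0.31). Of 27 changes of single clock genes, 2 turned in sign under any setting, those of Clock (-0.19) and Cry1 (-0.32) from WI to IR after rescaling to a common sum, and neither was past 2-fold. The change of Arntl rested most on the pseudocount, being -1.99 from sham to WI and 3.08 from WI to IR without one. After rescaling to a common sum, which also lessened the weight of the pseudocount, it was -0.98 from sham to WI. The rescaling itself shifted WI against sham by only -0.04 on the log2 scale. The difference between E-box driven and REV-ERB repressed genes, for which alternatives were chosen after seeing the data, was 2.75 in sham, 4.24 in WI and 2.91 in IR with a pseudocount of 0.1. It was 3.31, 5.02 and 3.10 in sham, WI and IR with 0.01, and 3.48, 5.34 and 3.13 with none. Without Npas2 it was 1.28, 2.53 and 1.8, and 1.64, 3.52 and 2.03 without a pseudocount as well. Leaving out sex-linked and sex-biased genes or genes without status OK removed no clock gene, so those settings say nothing about the clock genes. No paired analysis was possible because each group has 1 library, and leaving out a replicate was not possible with 1 library per group.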
